A study of Mus musculus with 2 samples.

Results

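Plasmacytoid dendritic cell-like barcodes made up 94 of the 13191 kept barcodes in a sort for CD4 T cells from mouse visceral fat. They were selected on measured values: a member held at least 1 UMI (a counted transcript molecule) of at least 3 of the 6 genes Siglech, Tyrobp, Cox6a2, Tcf4, Klk1 and Irf8. A barcode is the tag of 1 droplet, and it was kept if it had 500 or more genes and no more than 10% of its UMIs from mitochondrial genes. The study sorted cells positive for TCRb and CD4 from visceral adipose tissue (VAT), using its stromal vascular fraction, the cells that remain without the fat cells, and profiled them with the droplet-based 10x Genomics 3′ assay. It compared wild-type mice (WT) with CD27-/- mice (labelled CD27_KO). CD27 is a costimulatory receptor of lymphocytes. Each genotype gave 1 library from pooled animals, with 10 mice named for the pooling, per genotype or in all. Both samples carry the same strain entry, C57BL/6, so the genotype is read from the sample titles. Ages and treatments are not given in the labels. The design text also describes crosses with a CD11c-Cd70tg transgene, and no sample used here carries that name. With 1 library a genotype there is no spread between samples, so no test between genotypes is possible, and every interval below is an exact 95% interval that covers counting error only.

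Plasmacytoid dendritic cells (pDCs) are round, secretory cells of the dendritic lineage that sense viral nucleic acids in endosomes through Toll-like receptors 7 and 9 and answer with type I interferon. The E protein TCF4 (E2-2) holds their identity together with SPIB, BCL11A, RUNX2 and IRF8, while ID2, an inhibitor of E proteins, marks conventional dendritic cells. In mice they carry Siglec-H and BST2 on the surface, and part of them carry CD4, but they have no T cell receptor complex.

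The WT library held 6338 kept barcodes and the CD27_KO library 6853, with medians of 1946 and 2209 UMIs per kept barcode. The libraries shared 12 barcode sequences, and no member was among them. Cd27 was counted 2092 times in 1589 of the 6273 other WT barcodes and 15 times in 14 of the 6824 other CD27_KO barcodes, in the direction of the labels. Among members, Cd27 had 40 UMIs in 26 of the 65 WT barcodes and none in the 29 CD27_KO barcodes, at least 6.09-fold lower against a floor of 3 counts over the group. Of these 40 UMIs, 37 lay in members that also held CD3 transcripts. Cd70, the ligand of CD27, had no UMI in any member.

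Of the 25 genes furthest above the other barcodes, 18 had an entry in a RefSeq table of promoters (GRCm38.p6), and the 250 bases before the RefSeq start, which can differ from the GENCODE start, are shown for the leading 3 of those, to set letters beside the highest ratios. Siglech and Klk1 are genes of the rule, which in part fixes their place among the 25. Capitals mark CAGGTG, read on either strand, an E-box (CANNTG) form that E proteins such as TCF4 can bind.
Cd300c (chr11:114960508-114960757, minus strand): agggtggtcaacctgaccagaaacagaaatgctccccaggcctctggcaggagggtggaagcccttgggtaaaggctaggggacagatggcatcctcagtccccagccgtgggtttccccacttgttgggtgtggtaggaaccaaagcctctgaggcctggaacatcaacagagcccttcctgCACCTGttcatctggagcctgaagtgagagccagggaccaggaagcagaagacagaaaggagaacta
Siglech (chr7:55767934-55768183, plus strand): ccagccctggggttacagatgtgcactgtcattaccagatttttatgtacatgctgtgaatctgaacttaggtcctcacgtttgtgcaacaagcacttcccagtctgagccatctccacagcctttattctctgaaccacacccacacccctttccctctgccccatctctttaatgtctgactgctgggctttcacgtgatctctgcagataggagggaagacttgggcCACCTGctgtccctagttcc
Klk1 (chr7:44225110-44225359, plus strand): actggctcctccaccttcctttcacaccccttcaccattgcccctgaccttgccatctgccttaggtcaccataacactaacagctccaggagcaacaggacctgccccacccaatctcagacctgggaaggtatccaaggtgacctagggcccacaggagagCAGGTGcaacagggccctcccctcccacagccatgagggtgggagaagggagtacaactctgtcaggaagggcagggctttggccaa
Each of these stretches held 1 match of CAGGTG, which was found in 17.2% of all 32851 promoter entries at this length. Over the 22 entries of the 18 genes, 6 (27.3%) held CAGGTG or CAGCTG, against 27.7% of all entries. The letters GAGGAA, which PU.1 and SPIB can bind, were in 9 of the 22 (40.9%), from 8 genes since overlapping Rnase6 entries hold the same match, and in 23.3% of all entries. These are matches of letters only, and neither binding nor use of a motif was measured.

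Of the 6 rule genes, 4 lie on chromosome 7 (mm10), all protein-coding: Siglech at chr7:55768178-55778925, Tyrobp at chr7:30413760-30417585, Cox6a2 at chr7:128205435-128206387 and Klk1 at chr7:44225360-44229618. Irf8 lies on chromosome 8 and Tcf4 on chromosome 18. The members differ in how many of the 6 they hold. All 6 were seen in 55 barcodes, 5 in 21, 4 in 5 and 3 in 13. Tyrobp, an adaptor that pairs with activating receptors, was seen in all 94 members, and Tcf4 in 88. Siglech, the pDC lectin receptor Siglec-H, was seen in 82 members with 0 to 20 UMIs and a median of 6. Klk1, a tissue kallikrein, was seen in 66. Just inside the threshold, the 13 barcodes with 3 rule genes all held Tyrobp, and Siglech was seen in 2 of them. Just outside, 57 barcodes had 2 rule genes, of which 4 held Siglech and 37 held Tyrobp.

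**Figure D1:**
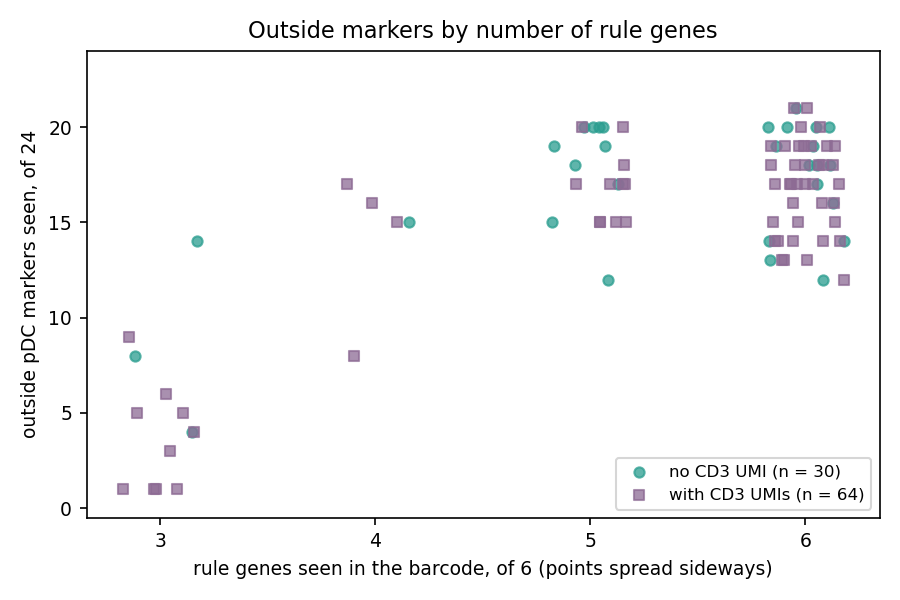
Each point is 1 of the 94 members, placed by the number of rule genes seen (x axis, of 6, spread sideways for sight) and the number of the 24 other pDC markers seen (y axis), with circles for the 30 without and squares for the 64 with CD3 UMIs. All members with 5 or 6 rule genes show at least 12 outside markers, and those with 3 rule genes range from 1 to 14.

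Of the 24 pDC markers that the rule did not use, members saw a median of 17 and the other barcodes 0. Members with all 6 rule genes held 12 to 21 of them. The 13 members with 3 rule genes held 1 to 14, with a median of 4, and 6 of them held at least 5. In the 57 barcodes just outside, the median was 2, and 13 held at least 5. At least 5 outside markers were thus seen in 87 of the 94 members. The other 7 held 1 to 4, so the pDC name does not hold for them. At least 5 were also seen in 21 of the 688 barcodes with 1 rule gene and in 17 of the 12352 with none. Reaching 5 thus does not by itself establish the name, least of all for members with 3 rule genes. In WT members, 23 of the 24 markers had the 20 UMIs needed for a comparison, and all 23 were at least 2-fold higher than in the other WT barcodes, where 11.1% of 3053 genes were. CD27_KO members had 20 of the 24 above that minimum, and all 20 were at least 2-fold higher, against 16.7% of 1552 genes. These genes were read from the same cells that the rule chose, so the counts describe the members and test nothing.

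The CD3 transcripts cut the members into separate sets. Cd3d, Cd3e and Cd3g, the invariant chains of the T cell receptor complex, had no UMI in 30 members and at least 2 UMIs in the other 64, and no member had exactly 1. The 30 without CD3 also held no UMI of the receptor constant genes Trac, Trbc1 and Trbc2 and no receptor variable segment of the alpha or beta chain, whereas all 64 with CD3 held receptor constant UMIs. The median member with CD3 carried 10 CD3 UMIs (highest 36), and the median other barcode 5. Over a list of 18 T cell genes, the medians were 40.5 UMIs with CD3, 0 without and 18 in the other barcodes. pDC transcripts did not part the sets in the same way: the 24 outside markers gave medians of 60 UMIs with CD3 and 68.5 without.

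**Figure D2:**
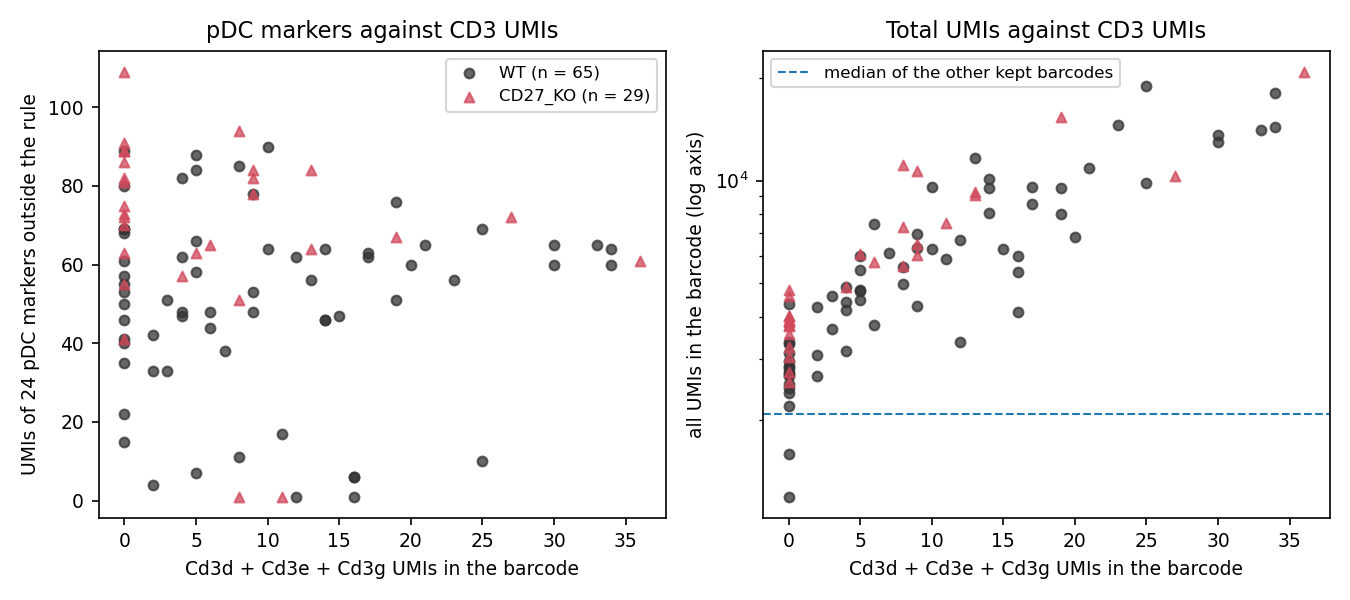
Each point is 1 member, WT (65 circles) or CD27_KO (29 triangles), with its summed CD3 UMIs on both x axes; the left y axis gives the UMIs of the 24 outside pDC markers and the right y axis all UMIs on a log axis, with a dashed line at the median of 2077 for the other barcodes. The column at 0 CD3 UMIs holds 30 barcodes and tops out at 4794 UMIs in all, and members with CD3 reach 20768.

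Total content moved with CD3. Members without CD3 had 1190 to 4794 UMIs with a median of 3092, and those with CD3 had 2672 to 20768 with a median of 6433. The median numbers of genes were 1370 and 2316, against 929 in the other barcodes. Barcodes with CD3 thus held T cell and pDC transcripts together with more than 2 times the median UMIs of those without, and these are the values of the doublet check. No doublet caller was run, and whether a barcode held 2 cells was not tested by other means. Among 34 barcodes with at least 3 B cell markers, 24 (70.6%) likewise held CD3, against 97.8% of all barcodes that were not members. Siglech had 7 UMIs over the 13097 other barcodes (0.0535% of them, at a median of 2077 UMIs), beside 87.2% of the members. It is a gene of the rule, which in part fixes both shares, so free RNA was not measured apart from the rule.

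WT contributed 65 members, 1.03% of its kept barcodes (0.792 to 1.31%), and CD27_KO contributed 29, or 0.423% (0.284 to 0.607%). The WT share was 2.42 times the CD27_KO share (1.54 to 3.90). Among barcodes with CD3 the numbers were 49 WT and 15 CD27_KO, a ratio of 3.53 (1.95 to 6.78). Without CD3 the numbers were 16 and 14, with a ratio of 1.24 (0.565 to 2.73) whose interval spans 1. A higher WT share was not particular to the members. Outside them, barcodes with at least 3 of Klrd1, Klrk1, Fcer1g, Klrb1c, Nkg7 and Klre1 numbered 177 and 59. Their ratio was 3.24 (2.40 to 4.43), and barcodes with B cell markers, 17 and 17, gave 1.08 (0.519 to 2.25). CD3 transcripts were in 75.4% of WT members (63.1 to 85.2%) and 51.7% of CD27_KO members (32.5 to 70.6%), and these intervals overlap. After members were thinned to 1300 UMIs, which left out 1 shallower WT member, the shares were 64.1% of 64 and 41.4% of 29. With 1 library a genotype, an effect of the genotype on this share and a difference between libraries cannot be told apart.

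Since the 30 members without CD3 hold no T cell receptor transcripts, the levels of pDC genes are given for them first, in CPM, a gene's UMIs for every 1000000 UMIs of the set. They hold 95140 UMIs, and 682 genes reached 20 UMIs in them. Of these, 228 (33.4%) were at least 2-fold above the other barcodes and 21 (3.08%) at least 2-fold below, and the median difference over all 682 was 0.38 on the log2 scale. Levels come from 3′ tags, so they are compared between cell sets and not between genes.

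Among transcription factors of the pDC program, 8 of the 9 with enough UMIs were at least 2-fold higher without CD3 than in the other barcodes. Of these, Tcf4 and Irf8 are genes of the rule, which in part fixes their levels. Tcf4, the E protein at the head of this program, stood at 3321 CPM against 12.6 in the other barcodes, with a median of 9 UMIs and a highest value of 23 per barcode. Irf8, an interferon regulatory factor of dendritic and B cells, stood at 2407 against 13.7. Spib, an ETS factor, was at 368 against 0.526, and Bcl11a, a zinc finger factor upstream in the lineage, at 767 against 1.08. Of the 39 Bcl11a UMIs outside the members, 30 lay in the 34 barcodes with at least 3 B cell markers, at 135 CPM. Tcf4 was at 180 CPM in those 34. Runx2, which pDCs need to leave the marrow, was at 946 against 33.9, and Mef2c at 1219 against 5.40. Zeb2 and Tcf12 were also above 2-fold, and Ikzf1 lay between the limits at 1.24-fold. Irf7, the factor that drives interferon genes after Toll-like receptor signals, had 11 UMIs and was not compared. Id2, which opposes E proteins, had 3 UMIs in these 30 barcodes, at 31.5 CPM against 736 in the other barcodes, and Zbtb46 and Batf3 of conventional dendritic cells had none.

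Surface genes gave 12 of 13 at least 2-fold higher, among them Siglech, a gene of the rule. Siglech was at 2134 CPM against 0.194. Bst2, tetherin, was at 4446 against 103, with 0 to 26 UMIs and a median of 14.5 per barcode, seen in 29 of 30. Ccr9, a homing receptor of gut and thymus, was at 851 against 8.31, and Ly6d, a small lymphoid antigen also found on B cells, at 1902 against 4.90. Cd300c, an immunoglobulin-family receptor, was at 420 against 0.0277, where the other barcodes hold 1 UMI. The lectins Cd209d and Cd209a were at 998 against 0.360 and at 452 against 0.692, and Klra17 at 326 against 0.0831 with 3 UMIs in the other barcodes. Cd209a was listed as a marker of conventional dendritic cells and is not 1 of the 13 surface genes. Ptprc (CD45) lay between the limits. Cd4 had 15 UMIs in 11 of the 30 barcodes, at 158 CPM, beside 139 in the other barcodes, and Cd8b1 had 7 UMIs in 5.

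Of 20 listed genes for sensing nucleic acids in endosomes, 6 had enough UMIs, and all 6 were at least 2-fold higher: Unc93b1, the chaperone that carries Toll-like receptors to endosomes, at 799 against 14, the folding chaperone Hsp90b1 at 851 against 237, the nuclease Pld4 at 662 against 0.858, and the cathepsins Ctsl, Ctsb and Ctss. Ctsl was at 1892 CPM against 8.94. The other listed genes had too few UMIs to compare: the receptors Tlr7 and Tlr9 had 14 (in 11 of the 30 barcodes) and 1, the adaptor Myd88 had 4, and Traf3 and Pld3 had none. No type I or type III interferon gene was detected: all 13 listed Ifna genes, Ifnb1 and the other listed genes of these types had no UMI in any of the 94 members. Ifng, which is of neither type, had 25 UMIs in 18 members with CD3 and 0 without. Of 19 listed interferon-response genes, Bst2 and Ly6e reached the minimum and were higher, Ifit1, Ifit2, Ifit3 and Rsad2 had none, and Isg15 had 1.

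The antigen presentation list had 6 genes with enough UMIs, all at least 2-fold higher, among them Cd74, the invariant chain, at 5497 against 69.7, with H2-Aa at 2039 against 23.3 and H2-Ab1 at 1829 against 19.4. Of the other barcodes, 97.8% held CD3, so these levels are mostly set against T cells. After thinning to 1300 UMIs, Cd74 was in 100% of WT and 94.1% of CD27_KO barcodes with B cell markers, and H2-Aa in 68.8% and 76.5%. Members without CD3 gave 100% and 85.7% for Cd74, and 86.7% and 71.4% for H2-Aa. The 2 genes are thus not particular to the members. The costimulatory genes Cd80, Cd86 and Cd40 had no UMI in these 30 barcodes. Among ITAM-type signalling genes, 5 of 5 were higher, among them Tyrobp at 5308 against 11.4, Fcer1g at 1051 against 15.5, the kinase Syk at 273 against 1.27 and the adaptor Blnk at 231 against 0.803. Of these, Tyrobp is a gene of the rule. Lysosomal genes gave 9 of 9, with Grn (progranulin) at 1251 against 16.3 and Psap (prosaposin) at 2722 against 93.7. The secretory list gave 10 of 11, with smaller differences: Sec61b, a channel subunit of the endoplasmic reticulum, was at 1114 against 378, Xbp1 at 284 against 70.9, and Spcs2 fell between the limits. The share over all genes compared was 33.4%, and these lists were chosen as pDC lists for cells picked by pDC genes, so nothing particular to a list is drawn from its count.

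**Figure D3:**
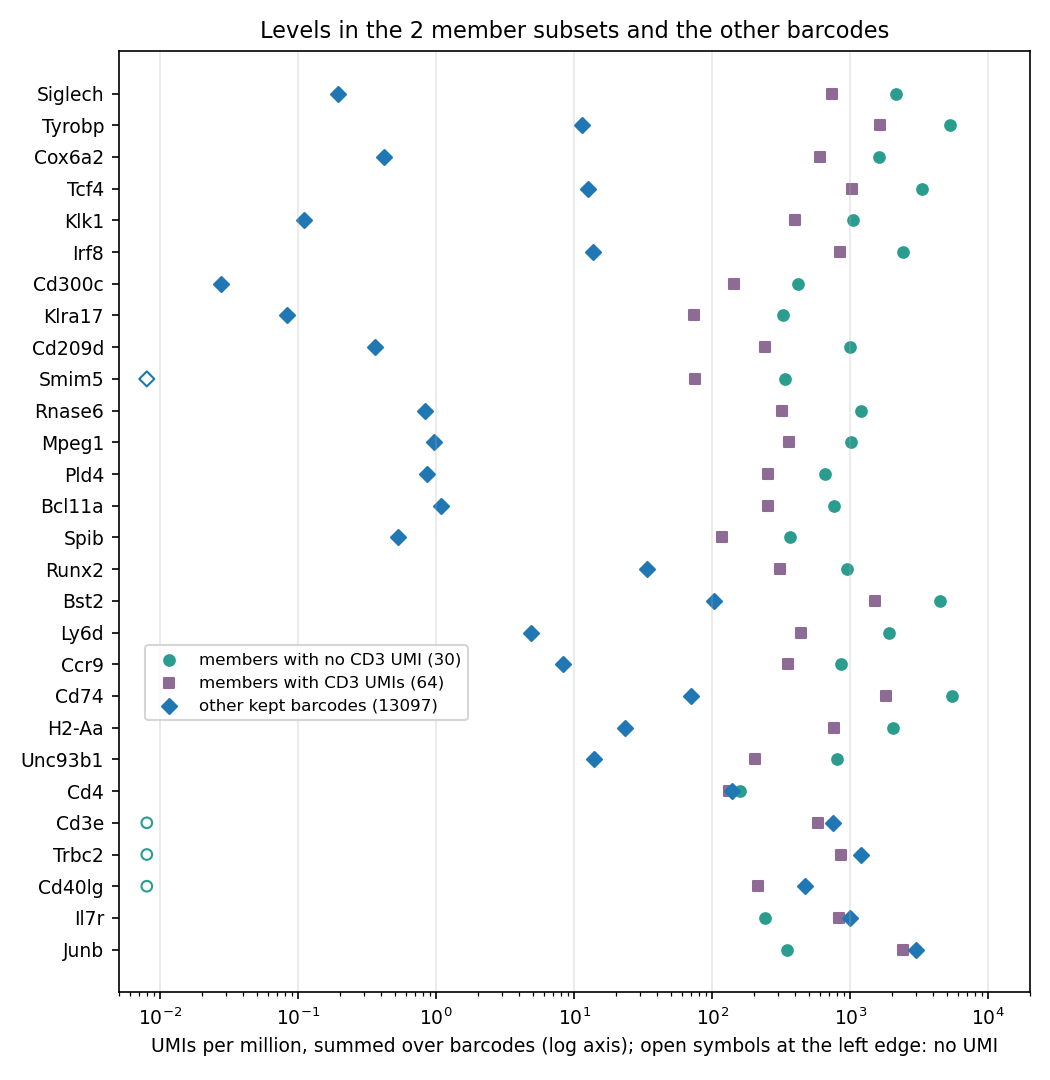
Levels in CPM (log x axis) for 28 genes in the 30 members without CD3 (circles), the 64 with CD3 (squares) and the 13097 other barcodes (diamonds), with open symbols at the left edge where a set has no UMI. From Siglech to Unc93b1 the squares lie between circles and diamonds, and for Cd3e, Trbc2 and Cd40lg the circles are at 0.

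Other leading genes had narrower roles. Cox6a2, a cytochrome c oxidase subunit best known from heart and skeletal muscle, was at 1608 CPM against 0.415, while its widely expressed form Cox6a1 had 17 UMIs, at 179 against 190. Klk1 was at 1051 against 0.111, and both Cox6a2 and Klk1 are genes of the rule. The last 500 bases of Klk1 transcripts share 60-base stretches with 6 kallikrein genes of the Klk1b family, so reads could be assigned unevenly among them; Klk1b27, 1 of the 6, had 14 UMIs in these barcodes. Siglech transcript ends share such stretches with 49 other genes. Smim5, a small membrane protein gene, had 32 UMIs and none in the other barcodes, at least 4050-fold higher against a floor of 3 counts over the group. Rnase6, a secreted ribonuclease, was at 1188 against 0.830, and Mpeg1 (perforin-2), a pore protein of phagocytes, at 1009 against 0.969. Sh3bgr, Scimp, Kmo, Clec12a, Ppfia4, Slamf9, Pkib, Upb1, Ly86 and Ccnd1 complete the 25 genes furthest above over all members, with 17 to 65 UMIs each in these 30 barcodes. Ccl4, an inflammatory chemokine, was at 893 against 20.8 and was seen in 15 of the 30 barcodes.

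The 10 genes furthest below the other barcodes, again over all members, include several of T cells. Cd40lg, the ligand by which helper T cells engage CD40, had no UMI in the 30 members without CD3 and 471 CPM in the other barcodes. Txk, a T cell kinase, Trat1, a receptor-associated adaptor, Prkcq, Slamf1, Lilr4b and Cdc42ep3 also had none there, Gramd3 had 1, Vps37b 2 and Satb1 3. Those 10 genes were at 41.6 to 250 CPM in members with CD3. Il7r, the interleukin-7 receptor, was at 242 against 1003, and Junb, an immediate early factor that also follows dissociation, at 347 against 3011. Mitochondrial genes took 4.42% of UMIs without CD3 and 2.69% with CD3, and 2.68% in the other barcodes.

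Most markers of T cells, macrophages and natural killer cells had no UMI without CD3, while most B cell markers had some. Of 18 T cell markers, 13 had no UMI and the list summed to 6 UMIs. Of 14 macrophage and monocyte markers, 10 were at 0, among them Csf1r, Lyz2, Adgre1 and C1qa, and Ly6c2, which pDCs also carry, was higher at 1587 against 196. Of 12 natural killer markers, 10 were at 0, and Klrd1 (CD94, at 442 against 25.3) and Fcer1g were higher. Of 12 conventional dendritic cell markers, 6 were at 0. The 2 with enough UMIs, Cd209a and Clec10a, were both at least 2-fold higher, where 33.4% of all 682 genes were. Cd209a was seen in 18 of the 30 barcodes, and Clec10a was at 273 against 1.08. Flt3, the receptor for the cytokine that drives dendritic cells, had 11 UMIs, and Clec9a had 7. Of 12 B cell markers, 4 were at 0, and the list summed to 41 UMIs, led by Ebf1 with 14 and Cd79b with 12. Its summed level was 431 CPM against 26.9 in the other barcodes, and by library it was 899 in WT and 38.6 in CD27_KO. Over all 94 members, 3 WT barcodes held 56 of the 70 WT UMIs of that list, and CD27_KO members held 6 UMIs in all. Neutrophil, mast cell and basophil markers had none.

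The 64 members with CD3 carried T cell state genes, of which Foxp3, Il1rl1 and Gata3 had no UMI in the others. Foxp3, the factor of regulatory T cells, had 34 UMIs in 17 of these 64 barcodes and none in the 30 without CD3. Scaled to CD3 transcripts, it had 3.78 UMIs per 100 CD3 UMIs in WT members and 2.35 in the other WT barcodes, a ratio of 1.61 (1.03 to 2.41). In CD27_KO the values were 5.41 and 1.17, a ratio of 4.61 (2.20 to 8.54) from 10 UMIs in 4 barcodes. Il1rl1, which encodes the interleukin-33 receptor ST2, gave a ratio of 2.13 (1.78 to 2.52) in WT and 1.27 (0.875 to 1.79) in CD27_KO. Gata3, a type 2 factor, had 127 UMIs with CD3 and none without, with a ratio to the other barcodes per CD3 UMI of 1.42 (1.13 to 1.75) in WT and 1.37 (0.971 to 1.87) in CD27_KO. Ctla4 was at 0.940 (0.762 to 1.15) in WT and 1.73 (1.16 to 2.47) in CD27_KO, and Klrg1 at 1.32 (0.974 to 1.75) and 1.53 (0.788 to 2.67). Ikzf2, which had 5 UMIs in 5 barcodes without CD3, was at 1.57 (1.33 to 1.83) in WT and 3.49 (2.52 to 4.71) in CD27_KO. Il4 had 1 UMI in each library, with ratios of 0.346 (0.00872 to 1.95) and 0.233 (0.00590 to 1.30) whose intervals span 1. Each ratio rests on few barcodes of 1 library, and a difference between the genotypes in these ratios was not tested.

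Between the libraries, members without CD3 offer the comparison least mixed with T cell RNA, with 43360 UMIs from 16 WT and 51780 from 14 CD27_KO barcodes. The median barcode of these held 2738 UMIs in WT and 3818 in CD27_KO. UMIs per barcode given below are not scaled for this depth, whereas the ratios are. At least 1.5-fold higher in CD27_KO were 119 of 682 genes (17.4%), and 84 (12.3%) were at least 1.5-fold lower. The median log2 ratio was 0.01. Over all members, 770 of 4272 genes (18%) were higher and 506 (11.8%) lower, with a median of 0.08, and there the libraries also differ in the share of barcodes with CD3. Intervals lay wholly above 1 for 37 and wholly below 1 for 58 of the 682 genes.

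Ly6d was lower in CD27_KO members in both sets. Without CD3 it had 130 UMIs in 15 of 16 WT barcodes (0 to 28 each, median 5) and 51 in 10 of 14 CD27_KO barcodes (0 to 20, median 1). The ranges overlap, and 1 CD27_KO barcode held 20 of the 51 UMIs. The CD27_KO level was 0.329 times the WT level (0.233 to 0.458). With CD3 there were 210 UMIs in 49 WT barcodes and 12 in 15 CD27_KO barcodes, a ratio of 0.154 (0.0786 to 0.276). Without the 3 WT members that hold at least 5 B cell marker UMIs, a set chosen after the values were seen and of which 2 lack CD3, the ratio without CD3 was 0.368. In the other barcodes it was 0.595.

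Klk1 had 68 UMIs in 13 of 16 WT barcodes and 32 in 9 of 14 CD27_KO barcodes without CD3, a ratio of 0.394 (0.25 to 0.608), and with CD3 the ratio was 0.668 (0.460 to 0.949). Without CD3 the highest barcode held 18 UMIs in WT and 8 in CD27_KO, and the ranges overlap here too. Tcf4 went the other way, with 0 to 18 UMIs (median 7) in WT and 4 to 23 (median 14.5) in the deeper CD27_KO barcodes without CD3. Scaled for depth, the ratio was 1.48 (1.17 to 1.88), and 1.55 (1.29 to 1.86) with CD3. Klk1 and Tcf4 are genes of the rule, so their ratios are descriptions of barcodes chosen by them. Siglech (0.745 to 1.32), Tyrobp (0.792 to 1.13) and Irf8 (0.718 to 1.23) had intervals that span 1 without CD3.

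Of the transcription factor list, Runx2, Ikzf1 and Tcf12 were at least 1.5-fold higher in CD27_KO among the 9 compared without CD3, where 17.4% of all 682 genes were, with Runx2 at 1.76 (1.12 to 2.84) and at 1.47 (1.04 to 2.06) with CD3. Mpeg1 was at 1.76 (1.13 to 2.79) and Cybb, a subunit of the phagocyte oxidase, at 1.74 (1.07 to 2.89). With CD3 these 2 were at 1.21 (0.868 to 1.67) and 1.22 (0.847 to 1.74), with intervals that span 1. Of the 6 antigen presentation genes compared, H2-Eb1 was at least 1.5-fold lower, beside 12.3% of all 682 genes, at 0.566 (0.384 to 0.828), and Cd74 was at 0.699 (0.586 to 0.834). With CD3 they were at 0.392 (0.261 to 0.569) and 0.544 (0.454 to 0.647). The other barcodes gave 0.71 for Cd74 and 0.687 for H2-Eb1. Klrd1 was at 0.297 (0.135 to 0.607) without CD3, at 0.664 (0.419 to 1.02) with CD3 and at 0.318 in the other barcodes. With CD3, 1 CD27_KO barcode held 16 of the 27 CD27_KO UMIs of Klrd1. Among all members the ratio was 0.590, and among those with at least 4 rule genes it was 0.275 (0.159 to 0.451). Klrd1 lies on chromosome 6, 4.36 Mb from Cd27. On it also lie Clec12a (4.11 Mb), with a ratio of 0.589 (0.310 to 1.10), and Klra17 (4.60 Mb), with 1.52 (0.695 to 3.52). Cd4 starts nearer, at -0.368 Mb from the start of Cd27, with a ratio of 1.26 (0.399 to 4.29) without CD3. A part of the locus in these values was not tested. Ccl4 was at 0.434 (0.267 to 0.691) without CD3 and 0.237 (0.138 to 0.385) with CD3, and its other barcodes were at 1.54. These Ccl4 ratios rest on part of the barcodes. With CD3, 24 WT and 5 CD27_KO barcodes held any Ccl4, and both medians were 0. There, 1 WT barcode held 49 of the 205 WT UMIs, and 1 CD27_KO barcode held 9 of 18. Without CD3, 9 WT and 6 CD27_KO barcodes held any, with medians of 1 and 0.

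**Figure D4:**
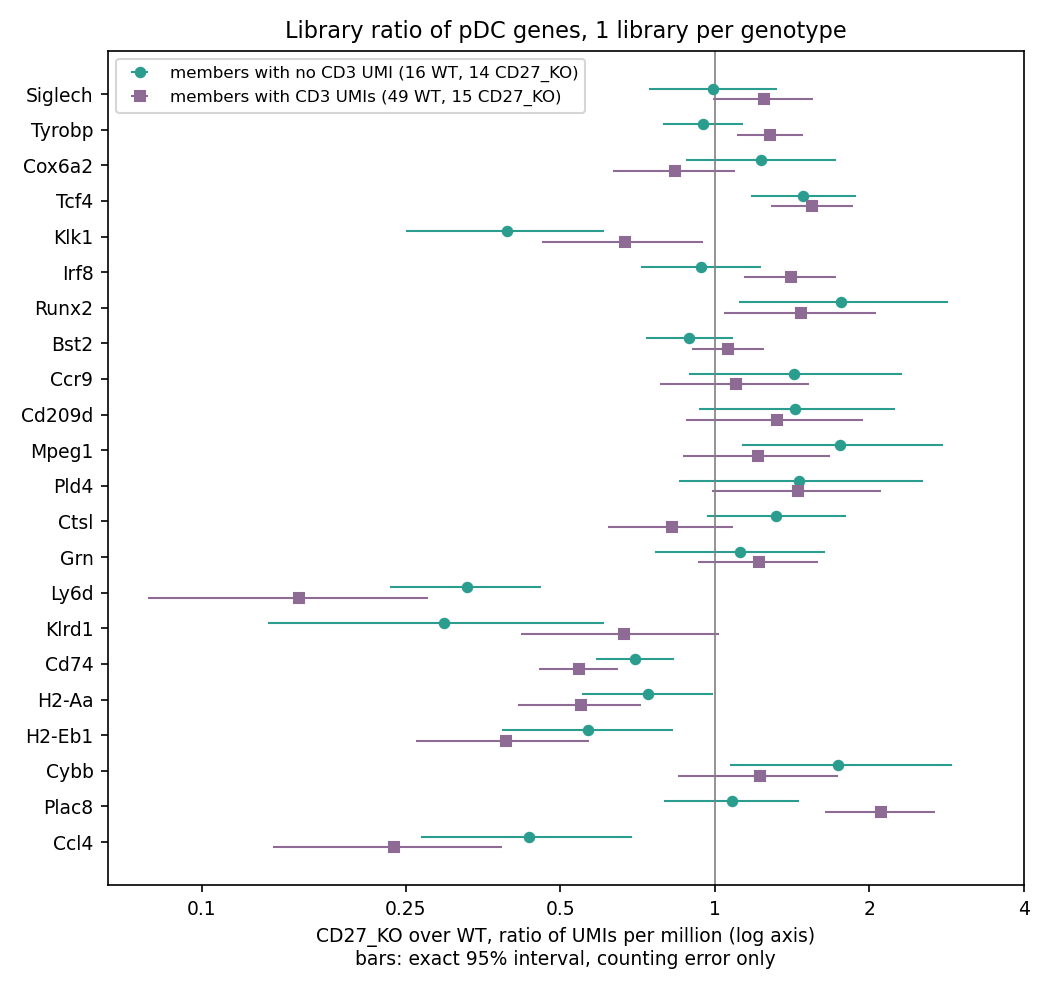
Ratio of CPM in CD27_KO over WT (log x axis) for 22 genes in members without CD3 (circles) and with CD3 (squares), with exact 95% intervals for counting error only and a line at 1. Ly6d, Ccl4, Cd74 and Klk1 lie left of the line in both sets, and Tcf4 and Runx2 lie right of it in both.

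Over all members, where barcodes with CD3 hold 504607 of the 599747 UMIs, other genes lay furthest apart. Cxcl2, a neutrophil chemokine, had 262 UMIs in 17 WT members and 3 in 3 CD27_KO members, all with CD3, and the other barcodes of the libraries were at a ratio of 0.174. Mt1, a metallothionein, had 48 UMIs in WT, 30 of them in 1 barcode, and 1 in CD27_KO. Rpgrip1, 1 of the 24 outside markers, had 65 UMIs in 37 WT members and 3 in 3 CD27_KO members, a ratio of 0.101 (0.0203 to 0.309), beside 0.301 in the other barcodes. Retreg1, Ier5l, Igflr1, Tmem245 and Zfp87 each had 19 to 26 UMIs in WT and 1 in CD27_KO. In the higher direction, Hist1h2ae and Hist1h2ap had 36 and 43 UMIs in CD27_KO against 1 and 7 in WT, of which 33 and 42 lay in 1 barcode each, and the 3′ ends of these histone genes share 60-base stretches with 18 other genes. Pclaf and Stmn1, genes of dividing cells, had 19 and 35 UMIs in CD27_KO members against 8 and 18 in WT, of which 16 and 17 lay in 1 barcode each. Ddit4, Abcb1b, Kdm2b and Atp2c1 had 13 to 23 UMIs in CD27_KO and 7 to 12 in WT.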

How the data were processed

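Single-cell 3′ RNA libraries of 2 pools of sorted cells, 1 WT and 1 CD27_KO, were used. Per the file headers the authors ran Cell Ranger 6.1.1, and per the submitters' processing notes reads were aligned to mm10. The deposited matrices hold raw UMI counts per gene and barcode, 16628623 UMIs in 6398 WT barcodes and 20191704 in 6893 CD27_KO barcodes. The labels name 2 kit versions, so the one used is uncertain. Of these, 60 and 40 barcodes with fewer than 500 genes or over 10% mitochondrial UMIs were dropped. No doublet caller was run, and no source used here says whether doublets had been removed.

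Members, gene lists and comparisons were chosen with earlier results of these data known. Counts were summed over barcodes and scaled to a total of 1000000 (CPM). A gene was compared with at least 20 UMIs in the members (over both libraries in the library comparison). It was called at 2-fold over other barcodes or 1.5-fold between libraries. Named were the rule, CD3 and listed genes, the 25 furthest above (at least 50 UMIs and 10% of members) and 10 furthest below other barcodes (at least 100 CPM there), and 8 in each direction between libraries. T cell receptor, immunoglobulin, ribosomal, mitochondrial and unnamed genes were left out of the ranking. Intervals for shares are Clopper-Pearson and for ratios exact conditional Poisson, at 95%. Gene positions are from GENCODE. The scripts used Python 3.11.15, numpy 2.4.6, scipy 1.17.1, pandas 2.3.3 and matplotlib 3.10.9 and were tested on simulated data.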

Additional observations from a re-analysis of the deposited data

How the results depend on the processing

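Counts of CD27_KO members went from 29 to 54 when 2 of the 6 genes sufficed. WT members went from 65 to 97 under that setting, within the limit of 1.5 times. In the library comparison, the number of genes higher in CD27_KO was 213 at 2-fold, 203 with at least 50 UMIs and 119 without CD3, against 770, and the number lower was 205, 139 and 84, against 506; each of these settings compares fewer genes or asks for a larger difference. Of the outside markers in WT, 13 of the 13 with enough UMIs were higher without CD3. The log2 ratio of CD27_KO over WT changed sign for Irf8 (-0.092 without CD3, 0.59 in all members), Siglech (-0.014 against 0.52) and Tyrobp (-0.079 against 0.55), and for Cox6a2 with CD3 only (-0.26 against 0.28); the cause was not tested. Of the 58 alternative values for the main counts and shares, 50, that WT count among them, stayed within 1.5 times or their interval, as did 125 of 149 for single genes. Settings with 5 outside markers, with CD3 only and without barcodes rich in B cell markers were chosen after seeing the data. No paired analysis was possible because each genotype has 1 library. Depth limits the values without CD3 most, where 95140 UMIs left 682 genes to compare.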
